A study of Homo sapiens with 4 samples.

Results

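The cytosolic ribosomal protein genes encode the proteins of the small and large subunits of the ribosome. They were taken by symbol, as autosomal protein-coding genes named RPL or RPS with a number and an optional A or X, with RPLP0, RPLP1, RPLP2 and RPSA added. This gave 73 genes of 20163 protein-coding genes, 30 of the small subunit and 43 of the large subunit. Nucleosomes had been mapped by digesting chromatin with micrococcal nuclease (MNase), which cuts between nucleosomes, and sequencing the protected DNA. The cells were BE(2)C (BE2C in the labels), an established human neuroblastoma line in which MYCN is amplified. All 4 libraries came from cells transfected with siRNA, 2 with a control siRNA (genotype wild type in the labels) and 2 with an siRNA against MYCN (N-myc kd), and the labels give 80 nM siRNA for both groups, although the methods of the study state a lower final concentration. The comparison asks whether lowering MYCN, a transcription factor of the MYC family, moved nucleosomes at these promoters.

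Ribosomal protein genes are among the most highly transcribed genes of growing cells, and their promoters are held open. Their transcripts start at a cytosine followed by a run of pyrimidines, the 5′ terminal oligopyrimidine tract (TOP), through which their translation is regulated together. MYC proteins are known to raise ribosome production, and MYC and MYCN bind with MAX to the E-box letters CACGTG. In an open promoter the DNA just upstream of the transcription start site (TSS) lacks a nucleosome, and the first nucleosome inside the gene, called +1, sits at a fixed distance downstream with +2 and +3 behind it.

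The deposited lists held between 10527010 and 12178724 nucleosomes per library, all of 1 fixed length and each with at least 6 reads. They summed to 147726171 and 147370973 reads in replicate 1 of control and knockdown, and to 242544884 and 239257113 in replicate 2, so replicate 2 had the larger list in both groups. The MYCN promoter, taken as the 3 kb between TSS - 2 kb and TSS + 1 kb, held 18725 and 23542 reads in the control libraries and 18820 and 23646 on knockdown. This was between 89.5 and 118 times the median promoter. The highest count of any single nucleosome was 1764 in all 4 libraries, although the list totals differed. Whether counts have a ceiling that affects this locus was not tested. The locus is amplified in this line, while the log2 change was 0.05 (edgeR adjusted p = 0.999). MNase reads measure no transcripts, so they do not check the knockdown. The methods of the study call the libraries of a group biological replicates, and the labels do not say what was separate, so p-values measure the spread between these libraries. Below, 4 values in a row are control replicates 1 and 2 and knockdown replicates 1 and 2, in that order.

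The annotated start sites of most of these genes carry the TOP letters. At 59 of the 73 genes (80.8%) the annotated transcript began with C, against 10.8% of all protein-coding genes. At 55 (75.3%) this C was followed directly by 4 or more pyrimidines, against 4.55% of all genes. A run of at least 8 pyrimidines lay within 10 bp of the start at 67 genes (91.8%), against 14.9%. The 30 bases around the start of 11 genes are shown because every distance below is measured from this base. They are from GRCh37 (hg19), 5′ to 3′ on the strand of the gene, the TSS is base 15, and capitals mark the longest pyrimidine run:
RPS3 (chr11:75110548-75110577, plus strand): cccgcgagccaCTTCCTTTCCTTTCagcgg
RPS6 (chr9:19380219-19380248, minus strand): agcggaagttggCCCTCTTTTCCgtggcgc
RPS14 (chr5:149829287-149829316, minus strand): cgccccctcccaCTCTCTCTTTCCggtgtg
RPS19 (chr19:42364311-42364340, plus strand): gaaaccccgtcgTTCCCTTTCCCCTggctg
RPSA (chr3:39448197-39448226, plus strand): ttcctgccgcctgTCTTTTCCgtgctacct
RPLP0 (chr12:120638899-120638928, minus strand): cgcgggcgcgaggCCCTTCTCTCgccaggc
RPL5 (chr1:93297583-93297612, plus strand): gcaagggctgtggCCCTTTTCCCaccccct
RPL11 (chr1:24018282-24018311, plus strand): ggaagctccgCTTTCTCTTCCTgctctcca
RPL13A (chr19:49990851-49990880, plus strand): gacaaaaCCTCCTCCTTTTCCaagcggctg
RPL4 (chr15:66797178-66797207, minus strand): acagcgggagtggtaagcaCTTCCTTTTCC
RPS7 (chr2:3622836-3622865, plus strand): tttccgCCCTCCTCCTCgcgctgtttccgc

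In 9 of these the run spans a start at C and continues at least 4 bases beyond it. The annotated start of RPL4 is an A, and its run of 12 pyrimidines begins 5 bp downstream. At RPS7 the run of 11 pyrimidines ends just past the start. Both genes recur below, RPL4 for the only window filled in every library, and RPS7 for the +1 nucleosome furthest from the annotated start.

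Averaged over the 73 genes, a deep gap at the TSS was followed by a sharp +1 nucleosome in each library. Reads covering the lowest point of the window between TSS - 200 bp and TSS + 50 bp fell to between 0.198% and 2.2% of the level found 1 to 2 kb upstream. Over all promoters the lowest point was between 54.1% and 59.7% of that level. The +1 peak stood 145 bp downstream of the TSS in all 4 libraries, at 2.35, 1.91, 2.28 and 1.95 times the upstream level, against 1.26 to 1.41 times over all promoters. It rose 3.06, 3.86, 3.41 and 3.53 times above the dip between +1 and +2, against 1.52 to 1.53 times over all promoters. The +2 peak lay 335 to 345 bp and the +3 peak 505 to 535 bp downstream. The lines of both groups followed each other over the gap and the 3 nucleosomes.

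**Figure D1:**
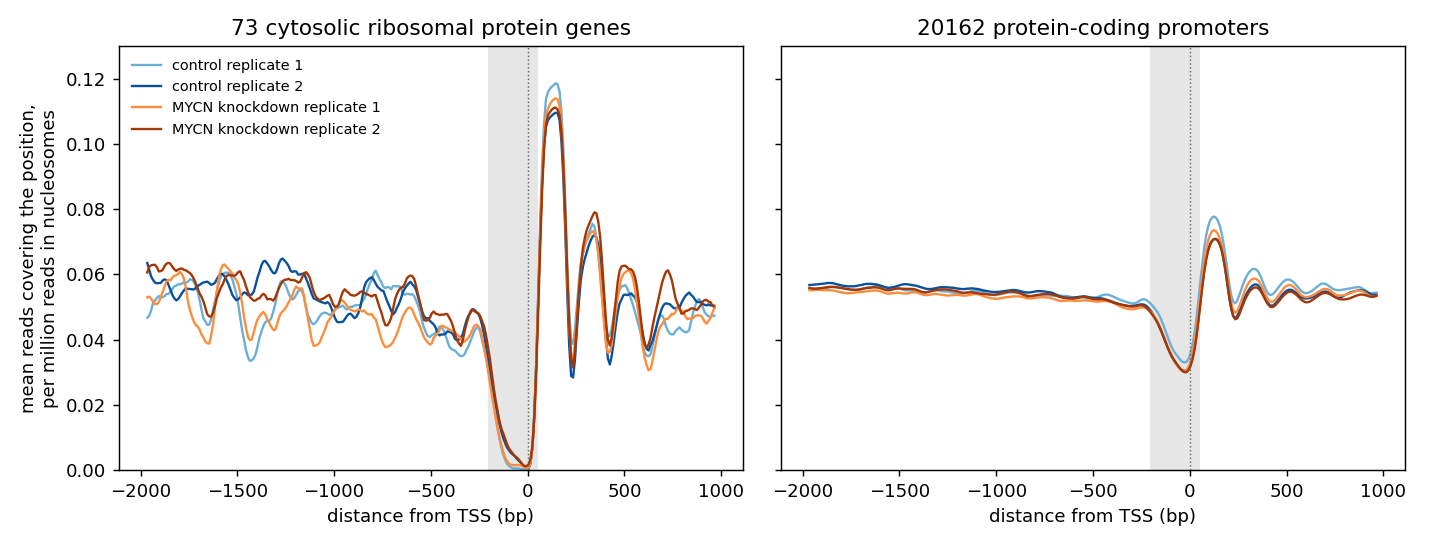
Mean reads covering each position (scaled to reads in nucleosomes, in 10-bp bins smoothed over 5 bins) against the distance from the TSS in bp, over the 73 ribosomal protein genes (left) and over 20162 protein-coding promoters (right), with 1 line for each of the 4 libraries. The window from TSS - 200 bp to TSS + 50 bp is shaded. In the left panel all lines come close to 0 there and peak at 145 bp, whereas in the right panel the dip stays above 54% of the upstream level.

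A promoter window was called empty when no listed nucleosome had at least 80% of its length inside it, and filled otherwise. The window was empty at 72, 66, 71 and 65 of the 73 genes, beside 58.4%, 52.6%, 60.3% and 52.1% of all promoters. It was empty in all 4 libraries at 64 genes (87.7%), beside 32.3% of all promoters, and filled in all 4 at 1 gene (1.37%), beside 19.9%. No gene went from empty in both controls to filled in both knockdown libraries (0 of 66, beside 5.26% of all promoters), and none went the opposite way (0 of 65, beside 5.62%). The groups differed by 1 gene in the mean count (69 ± 4.24 in control and 68 ± 4.24 on knockdown, SD, n = 2; two-sided exact permutation p = 0.667, where the smallest p that 2 libraries a group allow is 0.333). The replicates of a group differed by 6 genes, and the difference between groups ran from -4 (without control replicate 2 or knockdown replicate 1) to 2 (without control replicate 1 or knockdown replicate 2). The lists were also thinned at random towards the total of the smallest, and nucleosomes left with under 6 reads were dropped. The replicate 2 lists were thus cut at 6 reads again and ended below that total, so list totals were not made equal. The window was then empty at 72, 67, 71 and 71 genes, beside 58.5%, 60.9%, 60.3% and 60.8% of all promoters. The filled windows of knockdown replicate 2 went from 8 to 2 and those of control replicate 2 from 7 to 6. The mean difference turned to 1.5 more genes with an empty window on knockdown.

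The exception in every library was RPL4, a protein of the large subunit that lines the exit tunnel. Its window held a nucleosome of 6, 19, 9 and 16 reads, with the dyad (the centre of the nucleosome) at -95, -96, -88 and -97 bp from the TSS. The gene has a divergent neighbour, ZWILCH, whose own start lies within 1 kb. RPL19, also of the large subunit, held a nucleosome of 16, 8 and 9 reads in control replicate 2 and both knockdown libraries and none in control replicate 1. RPL21, RPL32, RPL35A and RPS23 had a filled window in both replicate 2 libraries and in neither replicate 1 library. Their nucleosomes held 16 and 15 reads at RPL21, 12 and 8 at RPL32, 11 and 10 at RPL35A, and 7 and 10 at RPS23, so these 4 separated by replicate number, which also marks the larger lists, and not by group. RPS14 was filled in control replicate 2 alone, with 15 reads. RPS24 and RPL35 were filled in knockdown replicate 2 alone, with 6 and 9 reads. Since a nucleosome had to reach 6 reads to be listed, an empty window means fewer listed reads and not bare DNA.

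All reads of nucleosomes centred in the window were summed over the 73 genes and gave 43, 165, 65 and 202 reads. Per base this was 0.0479, 0.099, 0.0722 and 0.122 of the level in the flanks, against 0.637 to 0.69 over all promoters. Both replicate 2 libraries stood above both replicate 1 libraries, and the groups overlapped. The group means were 0.0735 ± 0.0361 in control and 0.097 ± 0.0351 on knockdown (SD, n = 2; exact permutation p = 0.667).

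The gap was measured between the nearest dyads on either side of the window centre (TSS - 75 bp). Either dyad can therefore lie inside the window. The median gap was 456, 407, 435 and 390 bp over the members, against 289 to 328 bp over all promoters. The dyad on the upstream side lay at a median of -312, -276, -310 and -266 bp from the TSS. The gap was narrower in both replicate 2 libraries than in either replicate 1 library. Knockdown minus control was -21 bp in replicate 1 and -17 bp in replicate 2, and over all 4 libraries the groups overlapped (exact permutation p = 0.667).

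**Figure D2:**
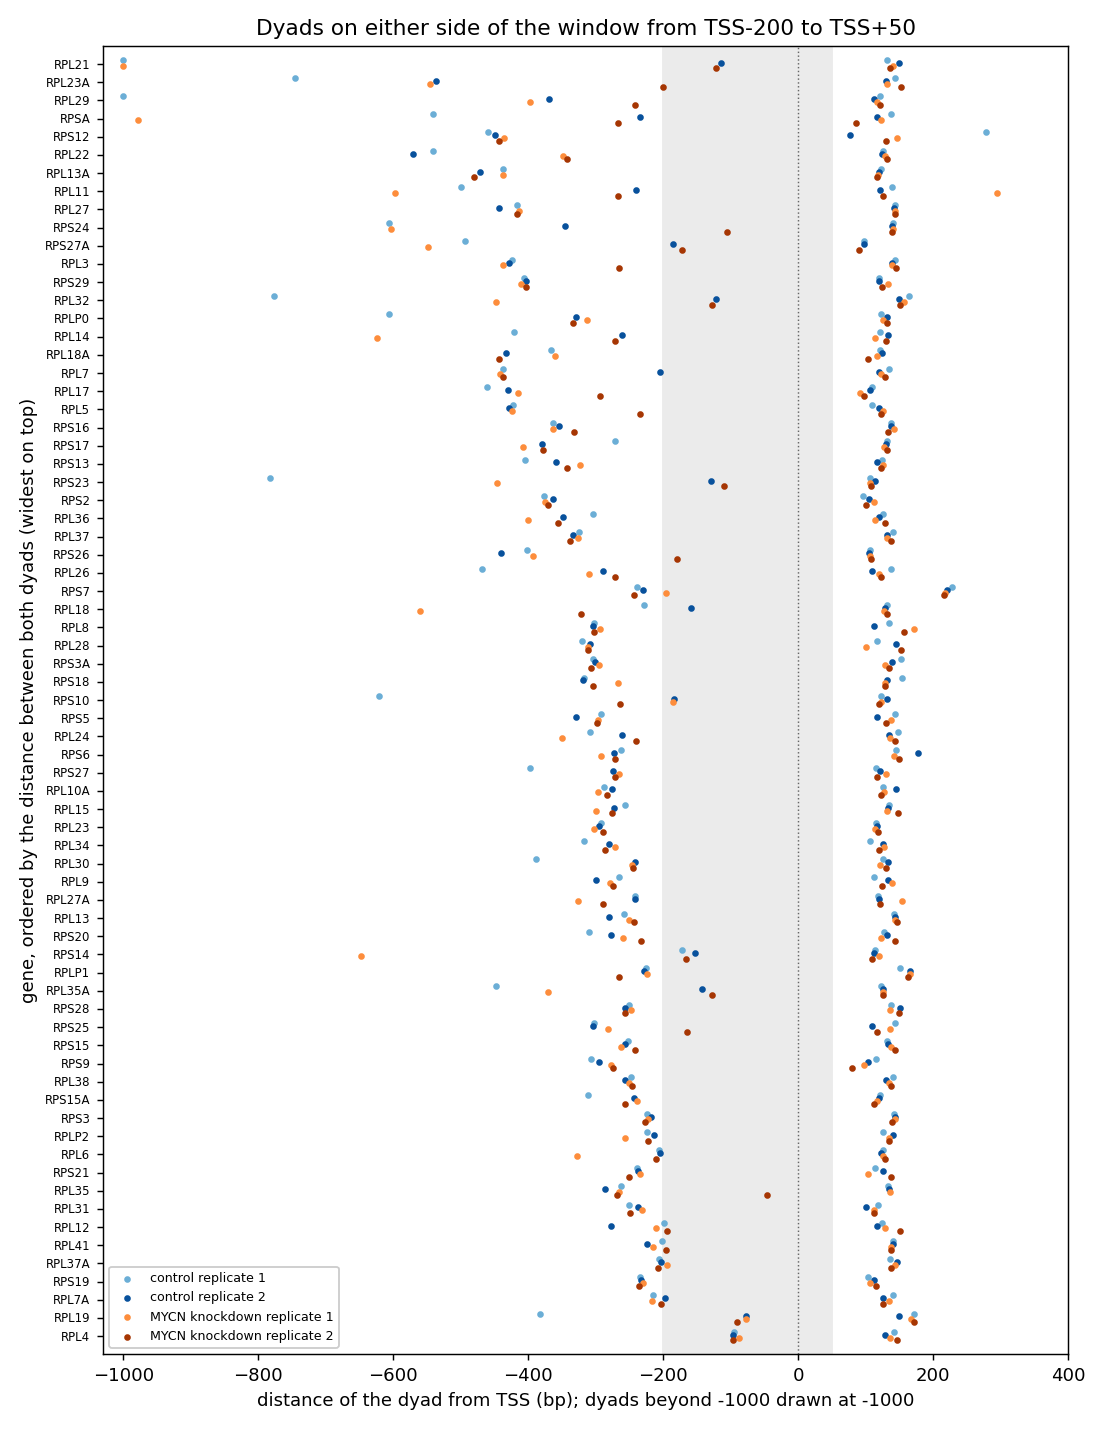
Distance from the TSS in bp (x axis) of the nearest dyads on either side of the window centre, for 71 of the 73 genes. Rows are ordered by the mean distance between both dyads. Each library and side has 1 point, coloured by library, and the promoter window (-200 to 50 bp) is shaded. Upstream dyads more than 1 kb away are drawn at 1 kb. The downstream dyad of RPS27A in knockdown replicate 1, at 502 bp, is beyond the axis and not drawn. Most downstream dyads form a narrow column near 130 bp, whereas the upstream dyads scatter between libraries. RPL4, at the bottom, has its upstream dyad inside the window in all 4 libraries.

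RPL21, RPL23A, RPL29 and RPSA were among the 5 genes with the widest mean gaps. At RPL21 the gap was 1427, 264, 1423 and 258 bp, since a nucleosome at -114 or -122 bp was listed in the replicate 2 libraries alone. RPL23A, which lies near the tunnel exit, had gaps of 890, 667, 677 and 353 bp. RPL29 had gaps of 1211, 482, 514 and 363 bp, and RPSA, a small-subunit protein also known as the laminin receptor, of 679, 352, 1100 and 353 bp. Each of these 4 varied by more than 200 bp over the libraries. Of the 5 narrowest gaps, 4 were steadier than these. Ranking by the mean places genes with a very wide gap in some libraries among the widest, so this does not describe wide gaps in general. RPL4 had 237, 225, 224 and 243 bp, RPS19 338, 345, 337 and 351 bp, RPL37A 342, 349, 338 and 345 bp, and RPL7A 355, 323, 352 and 329 bp. RPL19 joined them on average, but ranged from 228 to 554 bp. The gap of RPS3, a small-subunit protein at the mRNA entry that also acts in DNA repair, was 366, 361, 365 and 366 bp, an SD of 2.38 bp over the 4 libraries.

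A +1 nucleosome, the first dyad within 250 bp downstream of the TSS, was listed at 72, 73, 71 and 73 genes. The gaps in this list were RPS12 in control replicate 1 and RPL11 and RPS27A in knockdown replicate 1. Over the 70 genes with a +1 dyad in all 4 libraries the mean distance was 131.9, 130.4, 130.8 and 131.7 bp, against 115.7 to 117.8 bp over 15949 promoters. The groups overlapped and differed by 0.143 bp (131.2 ± 1.0 bp in control and 131.3 ± 0.636 bp on knockdown, SD, n = 2; exact permutation p = 1). The position repeated closely between libraries. The median gene moved over a range of 14 bp across the 4 libraries, against 49 bp over all promoters, and 50 of the 70 genes (71.4%) stayed within 20 bp, against 24% of promoters. The mean dyad lay 110 to 150 bp downstream at 58 genes (82.9%), against 44% of promoters. From +1 to +2 the median distance was 193.5, 199, 200 and 193 bp, against 208 to 211 bp.

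Among the small-subunit proteins, the +1 dyads of RPS24 lay at 141, 139, 140 and 139 bp. Those of RPS3 lay at 142, 143, 143 and 139 bp, and those of RPS26, which sits at the mRNA exit, at 106, 105, 106 and 108 bp. In all 3 the libraries of both groups stood within a few bases of each other. RPS19, the gene most often mutated in Diamond-Blackfan anaemia, had its +1 dyad at 104, 112, 107 and 115 bp. RPS6, the target of S6 kinase, varied more, at 145, 178, 142 and 149 bp, with control replicate 2 alone high. RPSA gave 138, 117, 122 and 86 bp. RPS27A, which is made as a fusion to ubiquitin, had the nearest +1 dyad on average, at 97, 98 and 90 bp in the 3 libraries that listed one. RPS9, next to it, gave 115, 104, 98 and 80 bp, with both knockdown libraries nearer the TSS than both controls. The furthest was RPS7 at 228, 221, 217 and 216 bp, whose annotated start is not at the head of a TOP tract in the sequence above. All 4 libraries placed it beyond 200 bp.

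Among the large-subunit proteins, RPL5 and RPL11 form a particle with 5S rRNA that can bind MDM2 and so stabilize p53. The +1 dyad of RPL5 lay at 110, 119, 125 and 123 bp. That of RPL11 lay at 139, 121 and 125 bp, and in knockdown replicate 1 the first downstream dyad lay beyond 250 bp. The stalk proteins bind translation factors. RPLP0, at the base of the stalk, had +1 dyads at 122, 131, 126 and 132 bp. RPLP1 had them at 151, 166, 166 and 162 bp and RPLP2 at 126, 141, 135 and 135 bp, so RPLP1 was further from the TSS than the other two in every library. RPL35A, another Diamond-Blackfan anaemia gene, had dyads at 123, 125, 125 and 125 bp. RPL13A, known for silencing inflammatory transcripts outside the ribosome, had them at 123, 120, 118 and 117 bp, and RPL22 at 126, 124, 128 and 131 bp. All 4 libraries of RPL35A agreed within 2 bp although its window was filled in 2 of them.

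The direction of the small shifts was not shared. The distance was greater in both knockdown libraries than in both controls at 8 of 70 genes (11.4%, beside 16.6% of promoters) and smaller at 10 (14.3%, beside 14.9%). A limma fit of the distance over all 15949 promoters called no promoter at an adjusted p under 0.05 (859 or 5.39% at an unadjusted p under 0.05, of which 0 were ribosomal protein genes). The largest shifts among the members were 41 bp further and 23.5 bp nearer on knockdown, and the smallest adjusted p of any member in the limma fits of distance and fuzziness was 0.951.

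Fuzziness, the SD in bp of the read midpoints around a dyad, was low at the +1 nucleosomes of the members. Its mean over the 70 genes was 25.1, 29.1, 23.9 and 28.4 bp, against 32.1, 34.1, 32.2 and 34 bp over all promoters. Both replicate 2 libraries were fuzzier than both replicate 1 libraries, and the group difference of -0.943 bp (27.1 ± 2.79 bp in control and 26.1 ± 3.12 bp on knockdown, SD, n = 2) was smaller than this (exact permutation p = 0.667). The sign of the group difference was not fixed. It was -2.92 and -3.15 bp without control replicate 1 or knockdown replicate 2, and 1.03 and 1.26 bp without control replicate 2 or knockdown replicate 1. Over nucleosomes of at least 20 reads it was 0.723 bp, but only 15 members had that many in the +1 nucleosome of all 4 libraries. The lowest values belonged to RPL37 (21.29, 21.41, 11.76 and 21.08 bp), RPS15 (17.2, 18.4, 21.6 and 20.3 bp), RPL18 (21.7, 20.1, 17.1 and 18.8 bp), RPL7A (25.6, 25.1, 12 and 16.1 bp) and RPS13 (10.2, 28.1, 18.4 and 22.7 bp). RPS13 had 7 to 16 reads in this nucleosome, RPS15 had 32 to 48, so the values of RPS13 rest on fewer reads. The highest means belonged to RPS12, RPL13, RPLP0, RPL12 and RPL8. At RPL13 the values were 28.3, 30.8, 36.6 and 41 bp, higher in both knockdown libraries, and at RPLP0 36.8, 32.6, 30.9 and 33.1 bp. At RPS12, with 8 to 10 reads, they were 47.6, 29.7 and 27 bp in the 3 libraries that listed the nucleosome.

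No +1 nucleosome was called for a change of fuzziness by limma (0 of 15949, with 667 or 4.18% at an unadjusted p under 0.05). Of the 70 members, 2 had an unadjusted p under 0.05. RPL7A differed by -11.29 bp (SE 4.84) and RPLP2 by 11.4 bp (SE 4.90), both with a limma adjusted p of 1 after rounding. The 2 are opposite in sign. Averaged over all nucleosomes of the 3-kb promoter, fuzziness was 31.7, 34.4, 32 and 34.4 bp and differed by 0.129 bp between groups (33.1 ± 1.92 bp in control and 33.2 ± 1.74 bp on knockdown, SD, n = 2; exact permutation p = 0.667). No promoter was called (0 of 20044 by limma, 298 or 1.49% at an unadjusted p under 0.05), and 1 member, RPS29, had an unadjusted p under 0.05 (4.53 bp, SE 2.19, limma adjusted p = 1).

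**Figure D3:**
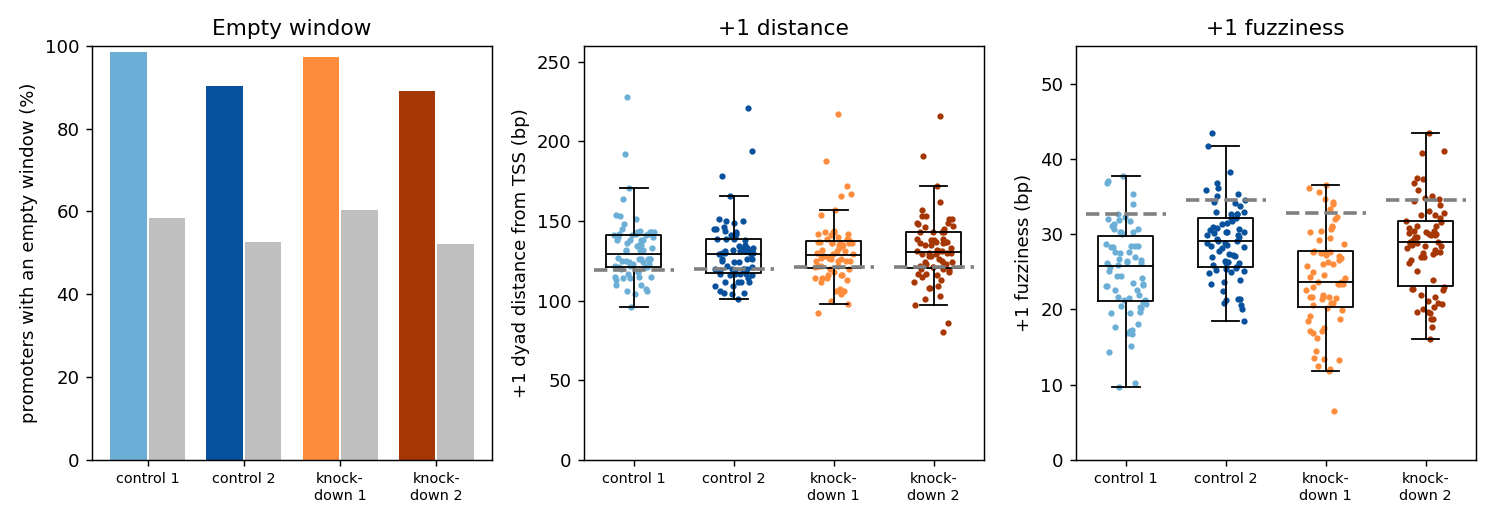
For each library, the percentage of ribosomal protein genes with an empty window (coloured bars) and of all promoters (grey bars), and the +1 distance from the TSS and +1 fuzziness in bp of 70 members (points, with boxes for the quartiles, whiskers to 1.5 times the box and dashed grey lines for the median over all promoters). The empty share and the fuzziness follow the replicate number (98.6% and 97.3% in replicate 1, 90.4% and 89% in replicate 2), and the +1 distance is level over the 4 libraries.

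Reads summed over the 3-kb promoter had a median of 146, 256, 138 and 256 per member, close to the 162, 263, 159 and 260 of all promoters. edgeR called no promoter of 20106 on knockdown (0%, with 632 or 3.14% at an unadjusted p under 0.05, while DESeq2 called 0 and had 208 at that level). Of the 73 members 0 were called and 2 (2.74%) had an unadjusted p under 0.05. The log2 change was above 0 at 44 members and below at 29, beside 50% of all promoters above 0, with a median of 0.05 and a range of -0.44 to 0.36 (-1.29 to 0.76 when only the 500 bp on either side of the TSS were counted). The median moved to -0.08 without knockdown replicate 2, to 0.00 without control replicate 1, to 0.08 without control replicate 2 and to 0.11 without knockdown replicate 1, so its sign depended on single libraries. Scaled reads did not overlap between groups at 12 genes that were higher on knockdown (16.4%, beside 15% of promoters) and at 7 that were lower (9.59%, beside 15.3%). In 1 simulation with 2 libraries a group, 100 promoters were changed 2-fold and 100 were changed 4-fold. The test recovered 91% and 100% of these, with 8 false calls among all remaining promoters. No fold as small as those of the members was simulated, and no effect of the replicate number.

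**Figure D4:**
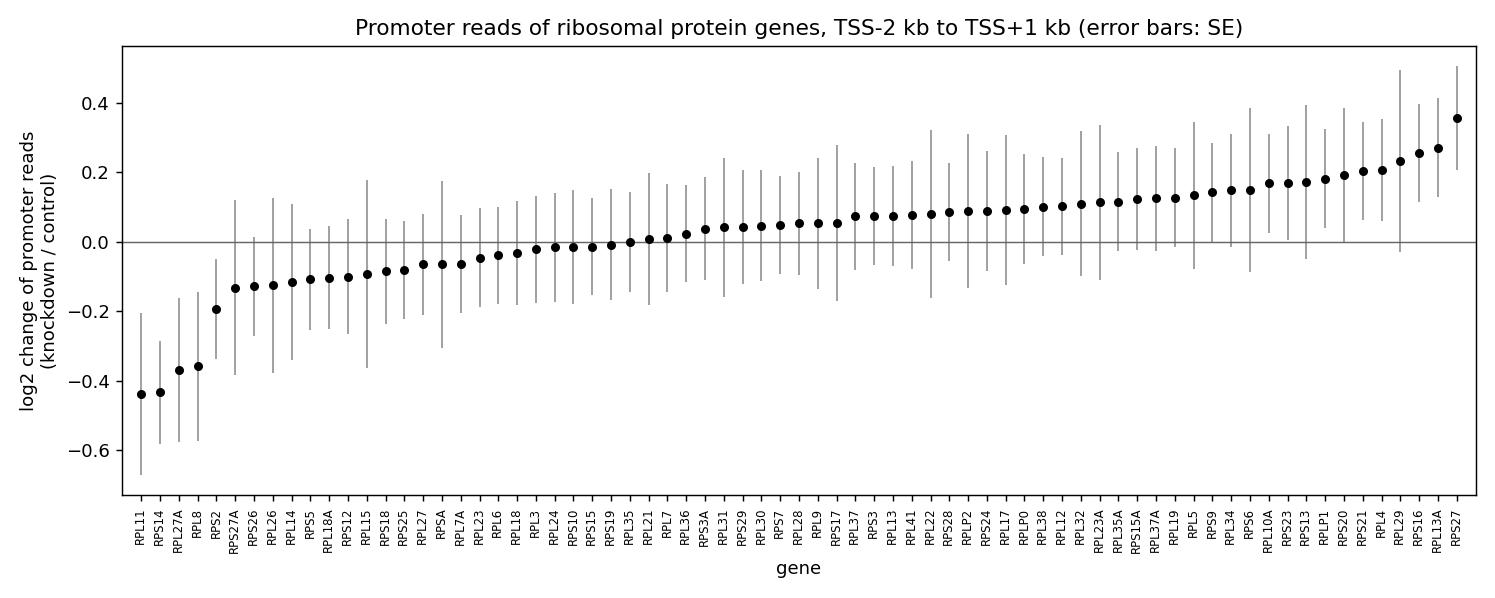
Log2 change of promoter reads on knockdown relative to control (y axis, edgeR estimate with its SE as bar) for 71 of the 73 genes, ordered by value. Estimates run from -0.44 at RPL11 to 0.36 at RPS27, none with an edgeR adjusted p under 0.05.

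The 10 genes with the largest estimates are given in reads scaled for library size. RPL11 had 130.9, 145.9, 85.6 and 116.6 scaled reads, lower in both knockdown libraries (log2 change -0.44, SE 0.23, edgeR adjusted p = 0.999). RPS14, which sits in the platform of the small subunit and is lost in the 5q- syndrome, had 221.7, 259.1, 175.2 and 182.7 (-0.43, SE 0.15, unadjusted p = 0.00486), but its estimate was -0.02 when only the 500 bp on either side of the TSS were counted. These are the lowest estimates, and the groups did not overlap in either. RPL27A had 137.4, 161, 98.9 and 130.5, and RPL8, a protein near the peptidyl transferase centre, 138.7, 147.5, 115 and 109.3. In that shorter window their estimates were -0.59 and -0.14. RPS27 had the highest estimate, with 193.1, 248.7, 243.4 and 322.1 scaled reads (0.36, SE 0.15, unadjusted p = 0.0206), and its groups overlapped, since control replicate 2 exceeded knockdown replicate 1. Leaving out single libraries gave 0.12 (without knockdown replicate 2) to 0.57 (without control replicate 2) for RPS27. RPL13A followed with 195.7, 234.4, 254 and 268.3 (0.27, SE 0.14). RPS16 had 252.8, 233.6, 300.8 and 278.9, and RPS21 252.8, 255.9, 268.8 and 313.1, both without overlap. RPL4, whose window was filled throughout, had 188, 204.1, 209.9 and 241.4 (0.21), and RPL29 84.3, 119.6, 84.2 and 153.3 (0.23, SE 0.26), where both replicate 2 libraries were higher than both replicate 1 libraries. The estimate of RPL29 was -0.29 without knockdown replicate 2 and 0.76 in the shorter window, and that of RPL4 was -0.13 from its most upstream start site. The edgeR adjusted p was 0.999 for all 10.

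The remaining genes chosen by role stayed closer to 0. The estimates were 0.13 for RPL5, 0.09 for RPLP0, 0.18 for RPLP1 and 0.09 for RPLP2. Those of the small-subunit genes were 0.07 for RPS3, 0.15 for RPS6, -0.01 for RPS19, 0.09 for RPS24, -0.13 for RPS26, -0.06 for RPSA and -0.13 for RPS27A. RPL35A had 0.12 and RPL22 0.08. SEs of these 13 ran from 0.14 to 0.25, so each estimate was within 1.5 SE of 0. The 30 small-subunit genes had a median of 0.04 and 27 windows empty in all 4 libraries, and the 43 large-subunit genes a median of 0.05 and 37 such windows.

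The E-box letters CACGTG, which read the same on both strands, were found in the 300 bp that begin 250 bp before the TSS at 5 members (6.85%), against 8.73% of all protein-coding promoters. Their sequences are given because MYCN is the protein that was lowered. They are from GRCh37, 5′ to 3′ on the strand of the gene, and capitals mark the letters searched:
RPS2 (chr16:2014793-2014822, minus strand): tttccgacaaaaCACGTGagtcctgttggt
RPL23 (chr17:37010033-37010062, minus strand): ttttgctccggcCACGTGaggagggtgggc
RPL19 (chr17:37356293-37356322, plus strand): gttacagataacCACGTGattgggaaccct
RPS28 (chr19:8386362-8386391, plus strand): ctctccccgaagCACGTGactcctctccgc
RPL13A (chr19:49990632-49990661, plus strand): gcctccgcgcccCACGTGatctctcgccgg

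Counted from the TSS, the letters begin at 17 bp at RPS2, -76 bp at RPL23, -231 bp at RPL19, -6 bp at RPS28 and -221 bp at RPL13A. The match says nothing about binding of the protein. The log2 difference of promoter reads was -0.19 at RPS2, -0.05 at RPL23, 0.13 at RPL19, 0.09 at RPS28 and 0.27 at RPL13A, each with an edgeR adjusted p of 0.999. At RPS2 the scaled reads were 304.6, 255.9, 255.4 and 233.2. At RPL23 they were 238.5, 278.2, 239.3 and 262.6, and at RPS28 247.6, 223.2, 251.4 and 246.3. Of these 3, RPS2 was lower in both knockdown libraries, although control replicate 2 and knockdown replicate 1 were nearly equal. The window of 4 of the 5 genes was empty in all 4 libraries, RPL19 being the exception, beside 60 of the 68 members without the letters. The +1 dyad of RPL23 lay at 115, 116, 114 and 118 bp, and that of RPS28 at 138, 151, 136 and 149 bp.

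Other letters were searched on both strands of the same 300 bp. CCGGAAG, a core of ETS factor sites, occurred at 25 members (34.2%) against 14% of promoters, and GATGGC, a core of YY1 sites, at 21 (28.8%) against 13.1%. GGGCGG, a GC box, occurred at 42 (57.5%) against 60.9%, and TATAAA at 6 (8.22%) against 9.8%. The median GC content was 59.3% against 63.3%, and the ratio of observed to expected CpG 0.92 against 0.773. The log2 change of promoter reads had a median of -0.02 over the 25 genes with CCGGAAG and 0.06 over the 48 without.

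The 200 bp upstream of 2 members are shown as examples of the DNA in the gap, chosen because neither overlaps an annotated exon. RPL37 had an empty window and the lowest +1 fuzziness, and RPL35A a steady +1 position with a window filled in the replicate 2 libraries alone. Capitals mark any of the 5 motifs in either direction (GRCh37, 5′ to 3′ on the strand of the gene):
RPL37 (chr5:40835325-40835524, minus strand): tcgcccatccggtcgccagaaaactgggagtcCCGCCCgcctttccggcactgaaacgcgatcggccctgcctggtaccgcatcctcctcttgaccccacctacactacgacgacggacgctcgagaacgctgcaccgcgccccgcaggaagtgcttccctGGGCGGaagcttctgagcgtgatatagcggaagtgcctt
RPL35A (chr3:197676861-197677060, plus strand): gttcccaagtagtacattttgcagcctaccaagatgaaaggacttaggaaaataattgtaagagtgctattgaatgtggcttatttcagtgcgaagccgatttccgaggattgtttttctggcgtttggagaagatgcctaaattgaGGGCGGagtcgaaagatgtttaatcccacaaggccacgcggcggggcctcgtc

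Over RPL37 the upstream dyad lay at -325, -333, -326 and -338 bp from the TSS, outside the stretch shown, and the +1 dyad 141, 131, 131 and 137 bp downstream. Over RPL35A the upstream dyad lay at -448 and -371 bp in the replicate 1 libraries, and at -142 and -128 bp, within the stretch shown, in the replicate 2 libraries. Both hold GGGCGG, the former once in each direction.

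The other lists of the pathway were described in the same way. Of 78 mitochondrial ribosomal protein genes, which serve the separate ribosome of mitochondria, 52 (66.7%) had a window empty in all 4 libraries, fewer than the 87.7% of the cytosolic genes and more than the 32.3% of all promoters. Their median +1 distance was 127 bp and their median log2 change 0.05, with 0 called by edgeR and 0 at an unadjusted p under 0.05. Of 14 other genes with TOP transcripts, such as EEF1A1 and NPM1, 12 had an empty window throughout, with a median +1 distance of 134 bp. Their median log2 change was 0.03, with 0 called by edgeR and 1 at an unadjusted p under 0.05. Of 10 paralogs and fusion genes outside the rule, such as RPS27L and FAU, 5 had an empty window throughout, with a median log2 change of 0.02, 0 called and 0 at an unadjusted p under 0.05. Low +1 fuzziness was not particular to the members. Its median was 26.4 bp over the members, 27.1 bp over the mitochondrial genes and 27.9 bp over the other TOP genes. It was 31.7 bp over the paralogs and fusion genes and 33.7 bp over all promoters. A wide gap was also shared. The median gap was 437 bp over the members, 406 bp over the mitochondrial genes and 559 bp over the other TOP genes. It was 337.5 bp over the paralogs and fusion genes and 305 bp over all promoters. Within the members, 53 of 60 genes without a divergent protein-coding neighbour within 1 kb had an empty window throughout, and 11 of the 13 with one.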

How the data were processed

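MNase-seq of 4 libraries of the BE(2)C cell line was analysed, 2 control and 2 MYCN knockdown, grouped by the sample titles. Per the study's methods and the submitters' processing notes (CASAVA 1.9, Trim Galore 0.4.4, Bowtie2 2.2.4, hg19), the authors mapped read pairs, kept pairs of good mapping quality and removed duplicates. Nucleosomes were called with Genetrack, and the deposited lists are 1 per library. For its own analysis the study pooled the replicates of a group, whereas each library was used alone here. Each deposited value of occupancy is a whole-number read count, the count of pair midpoints at 1 nucleosome, and nucleosomes under 6 reads were left out. The deposited fuzziness score is the SD in bp of midpoints around the dyad. List totals count reads in called nucleosomes and are not library depth, and reads were not normalized. A larger list passes 6 reads at more places. The mapping filter removes reads that fit several copies, which could lower counts where a processed pseudogene shares sequence, and mappability was not tested.

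Promoters of 20163 protein-coding genes (GENCODE 44 lifted to GRCh37, canonical TSS for 19881) were used, and windows were compared over 20079 with reads in every library. Members, lists and tests were chosen with earlier results of these data known. Promoter counts were tested with edgeR 4.0.16 (R 4.3.3, quasi-likelihood, TMM, mean of at least 10 reads, Benjamini-Hochberg over all promoters, called under 0.05). Distances and fuzziness were tested with limma 3.58.1, and values per library with two-sided exact permutation over 6 arrangements. The flanks of the window were 1 to 2 kb upstream and 500 to 1000 bp downstream. In the mean profile over all promoters, those above 20 times the median were left out. The fits were tested on simulated data. Named genes were the 10 largest absolute log2 changes, any window that switched with group, the 5 widest and narrowest gaps, the 5 lowest and highest +1 fuzziness, and 16 genes by role. RPS7, RPS9, RPS23, RPS29, RPL32, RPL35 and the remaining E-box genes were named after their values were seen. Alternatives were DESeq2 1.42.0, other scalings, filters, windows, start sites, lists thinned towards the smallest total, GC correction, a replicate block and leaving out each library. Some members are counted in every total but not reported singly here.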

Additional observations from a re-analysis of the deposited data

How the results depend on the processing

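Over 46 results, 565 alternative values were computed. No member passed a test in any fit across promoters. Of those that answer a comparison, 84 kept their value within the spread of replicates and 13 did not. With the most upstream TSS, 1 gene had a window empty in control and filled on knockdown, 2 had the opposite, and the +1 distance differed by 1.43 bp. Leaving out single libraries gave 0 to 2 and 0 to 1 genes for these windows, and -0.076 to 0.11 for the median log2 change of promoter reads. The shares of all promoters with switched windows (5.26% filled and 5.62% emptied) are from the main setting. None is given for the other settings, so their counts of genes cannot be set against a general rate. The number of promoters that edgeR called on promoter reads ranged from 0 to 1, with 1 (not a ribosomal protein gene) without knockdown replicate 2. With limma on promoter fuzziness it ranged from 0 to 7, with 7 without control replicate 2 or knockdown replicate 2, and 0 members. The difference in promoter fuzziness of the members ranged from -1.23 to 1.49 bp, and that of window reads relative to the flanks from -0.00199 to 0.0491. With limma on +1 fuzziness, 1 promoter was called without knockdown replicate 2, and 0 members. The group difference of the +1 distance ranged from -0.564 to 0.85 bp over these fits. The cause was not tested.

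The labels give no shared batch for the replicate numbers, so they share only a number. Deviations of same-numbered libraries correlated at 0.296 over all promoters and 0.466 over members, and list size goes with the number. With the replicate block, edgeR called 0 promoters (1176 at an unadjusted p under 0.05) and 0 members (6 at that level), and the median log2 change was 0.05. Same-numbered libraries gave on average 1.5 member windows filled and 0.5 emptied on knockdown, with no share of all promoters given beside them. For the fuzziness of the promoter, limma with the block called 4 of 20044 promoters (1122 at an unadjusted p under 0.05). It called 0 of 73 members (8 at that level).

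With 50% of a nucleosome inside the window as the rule, 69, 61, 67 and 57 genes were empty. Having 2 libraries a group limits every comparison, and the reads per list limit what an empty window shows.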

Other observations

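Promoter reads of the 73 genes followed the reads 5 to 50 kb away from them (Pearson's r = 0.891 across genes, which share the libraries and are not independent replicates). Relative to these flanks the median promoter density was 0.824, 0.826, 0.84 and 0.887 (control replicates 1 and 2, knockdown replicates 1 and 2), higher in both knockdown libraries (exact permutation p = 0.333, the smallest this design allows), against 0.923 to 0.946 over all promoters. The median distance from +2 to +3 was 206.5 and 205 bp in control and 203 and 201 bp on knockdown (exact permutation p = 0.333). Over all promoters it was 211 and 207 bp in control and 212 and 208 bp on knockdown. All other values per library tested for the members had a larger permutation p, so these were picked from many. Across members the GC content of the promoter and its log2 change had r = -0.15, and across all promoters r = -0.19. The members had a median of 13 annotated pseudogenes named after them, from 1 to 133 (RPL21), and 27 of the 73 hold snoRNA genes.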
